A study of Mus musculus with 9 samples.

Results

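The p200 and TRIM genes described here lie in 2 mouse gene clusters of innate immunity, and they were measured in the central cornea of 3 inbred strains. The p200 genes were Mndal, Ifi203, Ifi204 and Aim2, and the TRIM genes were Trim12a, Trim12c, Trim30a, Trim30d, Trim34a and Trim21. They were taken as all probe sets whose only gene symbol in the platform annotation was one of these 10, which gave 17 of 34945 probe sets with 1 symbol and 17 of 45037 probe sets in all. A further 7 probe sets carried a member's symbol together with other symbols, and they were left out because their signal cannot be given to 1 gene. The genes were chosen with differences between strains on these arrays already known, so their strain differences are given as a description without a p-value.

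The strains were SJL/J (SJL), whose cornea the labels call thick, C57BLKS/J (KS), whose cornea they call thin, and C57Bl/6J (B6), for which they give no thickness. All mice were untreated adult males of 4 months, and there were 3 of each strain. Punches of 2 mm from the left and the right eye of a mouse were combined into 1 sample and hybridised to 1 Affymetrix array, which gave 9 arrays from 9 mice. KS descends in large part from the same stock as B6, with other ancestry that includes DBA/2, and SJL is of Swiss origin. No animal received interferon or a virus, so induction can be described only through the resting level of genes that interferon is known to raise.

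The p200 proteins carry a HIN domain that binds DNA, most of them next to a pyrin domain, and several of them sense foreign DNA in the nucleus or the cytosol. TRIM proteins are ubiquitin ligases with a RING, a B-box and a coiled coil, and the mouse Trim12, Trim30 and Trim34 genes are relatives of the primate retroviral restriction factor TRIM5. Both families are known to be raised by type I interferon through transcription factors that bind an interferon-stimulated response element. Both clusters have also expanded by duplication and differ between mouse strains in the number and sequence of their genes.

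Promoter windows from RefSeq (GRCm38.p6, the C57BL/6J assembly) were searched for a motif of the interferon response. The motif was the core of the response element, GAAA followed by any 2 bases and a second GAAA, on both strands, in windows of 300 bases that run from 250 bases before an annotated transcript start to 50 after it. It was present for 8 of the 9 members that had a window, for 25 of 50 interferon-stimulated genes and for 3.99% of 27025 genes. Several of the members' windows are near copies of each other, so these 8 are not separate cases. Aim2 held no match in its window, and Ifi204 had no window in the table. The second motif, TTCNNNGAA, a gamma-activated site that equals its own reverse complement, was present for 0 of 9 members, for 11 of 50 interferon-stimulated genes and for 9.55% of all genes. The following stretches are shown because they set Trim12a and Trim12c, which gave no signal above the lower end of the scale in SJL, beside Trim30a, Trim30d, Trim34a and Trim21, which gave signal in every strain, and Mndal, which gave signal in B6. They are printed 5′ to 3′ on the gene's strand with the match in capitals, where a match that starts with TTTC lies on the opposite strand.
Trim12a, chr7:104315451-104315510, minus strand: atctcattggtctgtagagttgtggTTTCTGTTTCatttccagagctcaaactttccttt
Trim12c, chr7:104353344-104353403, minus strand: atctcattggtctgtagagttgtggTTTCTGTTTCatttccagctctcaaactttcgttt
Trim30a, chr7:104465195-104465254, minus strand: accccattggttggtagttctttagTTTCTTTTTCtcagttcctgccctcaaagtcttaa
Trim30d, chr7:104507856-104507915, minus strand: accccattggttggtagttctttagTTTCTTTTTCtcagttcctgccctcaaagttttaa
Trim34a, chr7:104244442-104244501, plus strand: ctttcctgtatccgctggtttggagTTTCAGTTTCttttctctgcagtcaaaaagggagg
Trim21, chr7:102565435-102565494, minus strand: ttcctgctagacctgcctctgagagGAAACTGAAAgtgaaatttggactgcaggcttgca
Mndal, chr1:173880189-173880248, minus strand: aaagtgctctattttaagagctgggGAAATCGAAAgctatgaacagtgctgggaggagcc

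The stretch of one Ifi203 window, chr1:173942493-173942552, has the same 60 bases as that of Mndal. The windows of several members are near copies of each other. Trim12a and Trim12c were identical at 247 of 260 aligned bases, Trim30a and Trim30d at 276 of 295 (93.6%) and Mndal and Ifi203 at 282 of 289 (97.6%). Trim34a and Trim21 shared 143 of 276 (51.8%). Counted from +1 at the annotated start, the match began at base 11 for Trim12a and Trim34a, at base 14 and again at base 20 for Trim21, where the 2 matches overlap and only the first is in capitals, and between bases -54 and 3 for the other members. All of these letters are those of B6, and the sequence of SJL and KS at these sites was not analysed here. A match in a window describes the letters and does not show that a factor binds there.

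**Figure D1:**
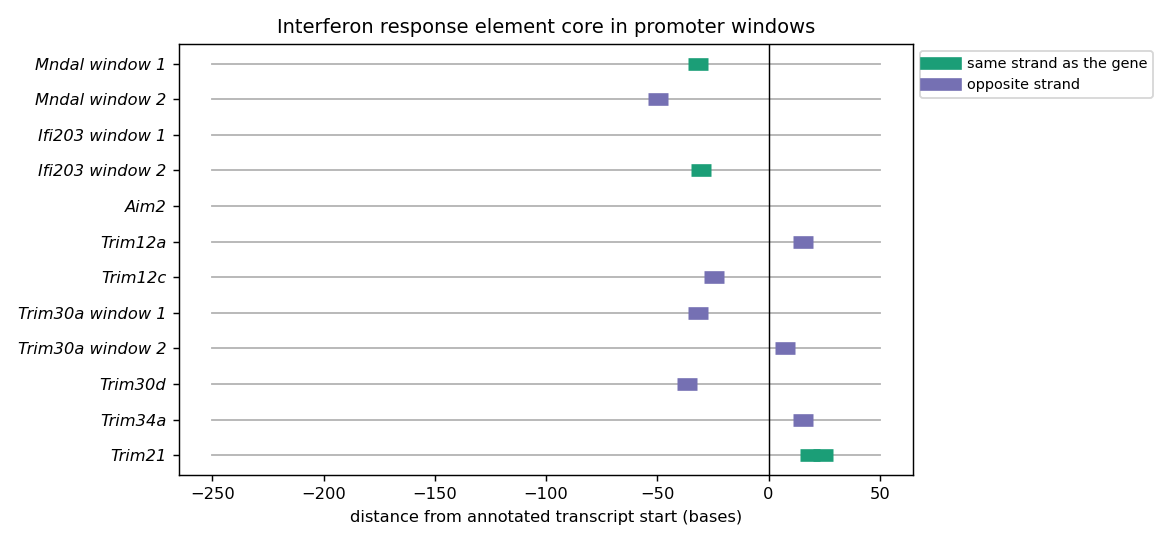
Position of the response element core in each promoter window of the members, against the distance in bases from the annotated transcript start. Grey lines span the windows, and coloured blocks mark matches on the gene's strand or the opposite strand. Trim21 holds 2 overlapping matches, and Aim2 and the first Ifi203 window hold none.

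The arrays give intensities on a linear scale with no detection calls, so the lower end of the scale had to be set from the data. Of 720 values of 80 probe sets for olfactory and vomeronasal receptors, which cornea is not expected to use, 99.2% lay below an intensity of 16. Xist, which male tissue lacks, reached 8.67 at most. A probe set is therefore called low in a strain when all 3 arrays lay below 16 and high when all 3 lay above 64. Levels below 16 have no order, and a fold against a strain that was low is given as at least the geometric mean of the brighter strain over 16. Corneal markers were abundant on all arrays, with Krt12, the keratin of differentiated corneal epithelium, at a mean of 26604 in SJL, 26808 in KS and 28462 in B6. KS replicate 3 stood apart by photoreceptor transcripts. Gnat1, rod transducin, was at 2108 on it, and 6 of 9 retina markers lay above 16 there, against 0 of 9 on every other array. Levels are intensities, and differences are log2 differences of intensity + 10 with the standard error of the limma model fitted over all 22519 probe sets that passed a filter on dim signal. Each strain had 3 arrays, and thickness cannot be told apart from strain.

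Mndal, a nuclear p200 protein of the kind named after the human myeloid differentiation antigen, gave signal in B6 and almost none in SJL. On its first probe set, 1452231_x_at, SJL read 5.29, 5.25 and 5.63, KS read 44.9, 24.1 and 20.1, and B6 read 2185, 1327 and 1541. The 3 strains did not overlap, and the SJL arrays lay at the lower end of the scale. The log2 difference was -6.75 ± 0.24 in SJL against B6, a level at least 103-fold lower in SJL, and -5.43 ± 0.24 for KS against B6. The second probe set, 1426906_at, read 5.31, 5.29 and 5.32 in SJL, 13.6, 13.3 and 7.05 in KS, and 1209, 802 and 844 in B6. By that probe set Mndal was low in both SJL and KS and at least 58.5-fold lower in each than in B6. The suffix of the first probe set marks probes that can match other transcripts, and the second has no such suffix.

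Ifi204, which encodes p204, a DNA-binding relative of human IFI16, gave 3 separate levels in the 3 strains. SJL read 7.43, 17.5 and 9.37, KS read 542, 299 and 294, and B6 read 1461, 881 and 1332. No array of a strain overlapped another strain, and 2 of the 3 SJL arrays lay at the lower end of the scale. The log2 difference was -4.15 ± 0.29 in SJL against KS, -1.69 ± 0.29 for KS against B6 and -5.84 ± 0.29 for SJL against B6. As a ratio of geometric means the KS level was 0.303 of that in B6. These values rest on 1 probe set, 1419603_at. For Ifi204 and for Mndal, whether transcripts were fewer or the SJL or KS sequence under the probes differed was not tested.

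Ifi203, another nuclear p200 protein, and Aim2, the cytosolic DNA sensor that assembles an inflammasome, were at the lower end of the scale in every strain. The only probe set of Ifi203 with 1 symbol, 1442828_at, lay between 4.63 and 4.82 on the 9 arrays. The Aim2 probe set, 1426619_at, had a mean of 7.79 ± 0.64 in SJL, 6.77 ± 0.65 in KS and 8.74 ± 2.56 in B6 (SD, n = 3), with 11.7 on B6 replicate 1 as its highest value. No strain difference in presence can be read from either probe set, and neither passed the filter on dim signal.

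Trim12a and Trim12c, mouse relatives of TRIM5, had only Trim34b between them among the cluster genes listed here in RefSeq order. Both gave signal in KS and B6 and none above the lower end in SJL. Trim12a by probe set 1437432_a_at read 4.24, 4.29 and 4.17 in SJL, 950, 1072 and 969 in KS, and 1542, 1305 and 1502 in B6. The log2 difference was -6.14 ± 0.09 in SJL against KS, at least 62.2-fold lower in SJL, and -0.53 ± 0.09 in KS against B6. The 3 SJL arrays all lay at the lower end, and the KS arrays lay below the B6 arrays without overlap. Trim12c by probe set 1443858_at read 5.91, 5.84 and 5.97 in SJL, 1102, 802 and 755 in KS, and 1488, 1101 and 1215 in B6. Its log2 difference was -5.80 ± 0.16 in SJL against KS, at least 54.6-fold lower in SJL, and -0.52 ± 0.16 in KS against B6, where KS replicate 1 overlapped the B6 arrays.

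Each of these genes had a second probe set that was low in all 3 strains. That of Trim12a, 1420648_at, lay between 4.83 and 5.16 on the 9 arrays. That of Trim12c, 1445271_at, had a mean of 7.94 ± 0.86 in SJL, 8.99 ± 0.86 in KS and 13.4 ± 2.4 in B6 (SD, n = 3). The missing signal in SJL therefore rests on 1 probe set for each gene. Whether the transcripts were absent or the SJL sequence under the probes differed was not tested, since neither probe sequences nor SJL sequence were used.

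Trim30a and Trim30d, duplicated TRIM genes of which Trim30a is known to restrain Toll-like receptor signalling, were present in all strains by their brighter probe sets and highest in B6. Trim30a by probe set 1451860_a_at read 2930, 1529 and 2822 in SJL, 2314, 2077 and 1669 in KS, and 7268, 5310 and 6719 in B6. SJL and KS overlapped with a log2 difference of 0.22 ± 0.26, and the difference was -1.67 ± 0.26 for KS against B6 and -1.45 ± 0.26 for SJL against it. Its dimmer probe set, 1417961_a_at, read 17.7, 6.86 and 26.5 in SJL, 28.7, 27.3 and 18.2 in KS, and 303, 191 and 186 in B6. Both probe sets were lower in SJL and in KS than in B6 without overlap.

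Trim30d by probe set 1435665_at read 173, 77.2 and 227 in SJL, 185, 135 and 134 in KS, and 1803, 1024 and 1245 in B6. SJL and KS overlapped (log2 difference -0.04 ± 0.36), and both lay below every B6 array, with -3.06 ± 0.36 for KS and -3.09 ± 0.36 for SJL. The ratio to B6 was 0.114 in KS and 0.110 in SJL. The other Trim30d probe set, 1438716_at, lay below 16 on all 9 arrays and reached its highest value, 12.5, on B6 replicate 1.

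Trim34a and Trim21 gave signal above 1000 in every strain by their brighter probe sets. Trim34a is a mouse relative of the human TRIM34 restriction factor. By probe set 1426093_at it read 2663, 1437 and 2263 in SJL, 1967, 2152 and 1759 in KS, and 3069, 2475 and 2621 in B6. By that probe set SJL overlapped both other strains, and the log2 difference was -0.40 ± 0.21 in SJL against B6 and -0.47 ± 0.21 in KS against B6. By 1424857_a_at it read 1354, 1133 and 1449 in SJL, 1764, 1535 and 1486 in KS, and 3965, 2954 and 3295 in B6, with differences of -1.37 ± 0.14 in SJL against B6 and -1.08 ± 0.14 in KS against B6. The 2 probe sets of Trim34a therefore gave different sizes of the B6 excess.

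Trim21, the cytosolic antibody receptor also known as the autoantigen Ro52, had narrow and graded strain levels. By probe set 1448940_at it read 1311, 1277 and 1156 in SJL, 1428, 1541 and 1527 in KS, and 2517, 2183 and 1987 in B6. The strains did not overlap, but limma did not call the difference between SJL and KS. The log2 difference was -0.26 ± 0.11 in SJL against KS, -0.56 ± 0.11 for KS against B6 and -0.83 ± 0.11 for SJL against B6. Its second probe set, 1418077_at, lay between 6.17 and 11.2 on all arrays.

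**Figure D2:**
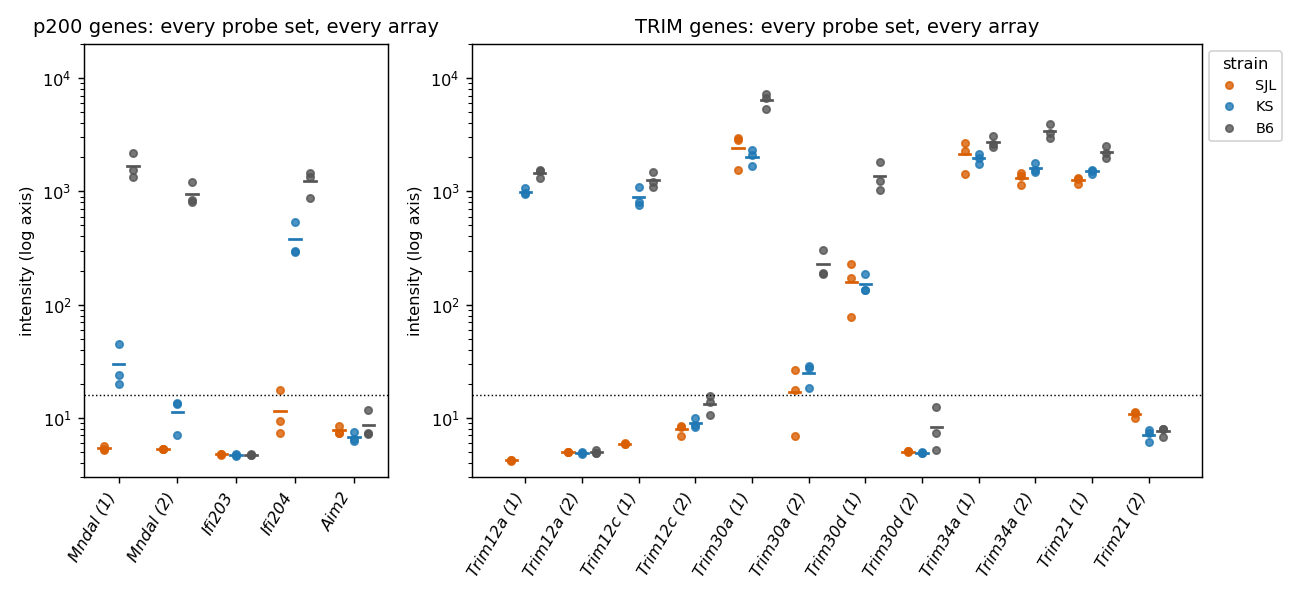
Intensity of all 17 probe sets on a log axis, with 1 point per array, a bar at the mean of the 3 arrays of a strain, and strains in the order SJL, KS and B6. Numbers in brackets count the probe sets of a gene from the brightest, and the dotted line marks an intensity of 16. Mndal, Trim12a and Trim12c lie at the lower end in SJL, while the brighter probe sets of Trim30a, Trim30d, Trim34a and Trim21 have their highest mean in B6.

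Counted together, 13 of the 17 probe sets, from 8 of the 10 genes, passed the filter on dim signal, which kept probe sets whose mean log2 value was at or above the median. Both probe sets of Mndal, both of Trim12c and the brighter one of Trim12a had SJL means below the filter, so they passed only through the other strains and had to differ. The dimmer one of Trim21 passed only through SJL. With 1 probe set per gene, limma called 4 of the 8 genes lower in SJL than in KS at a Benjamini-Hochberg adjusted p under 0.05 (8.01% of all 10956 genes tested were). It called 6 lower in KS than in B6 (2.87% of all) and 7 lower in SJL than in B6 (7.63% of all). None was called higher, beside 6.82%, 3.39% and 8.38% of all genes in the same 3 contrasts, and 5, 7 and 7 of the 8 had an unadjusted p under 0.05. The members were chosen on these differences, so nothing is read from these shares. Low in 1 strain and high in another were 4 of the 17 probe sets, those of Mndal, Trim12a and Trim12c, beside 178 of 45037 (0.395%) among all probe sets. By probe set, 5.71% of those tested were called in KS against B6, 15.5% in SJL against KS and 16% for SJL against B6. Of 11 member probe sets high in B6, 4 were low in SJL and 1 in KS, beside 0.526% and 0.311% of all 16716 probe sets high in B6. Of 8 high in KS, 2 were low in SJL, beside 0.458% of all.

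In the TRIM region the few measured neighbours with signal, Trim5, Trim6 and Trim68, did not share 1 direction in SJL. Whether those of the p200 region did cannot be read, since only Ifi202b and Ifi209 gave signal above the lower end of the scale. The probe set of Ifi202b may detect other transcripts, and the probe sets of Ifi209 disagreed. In the RefSeq gene order, the p200 region held 17 listed genes, of which 4 were members and 11 had a probe set of their own. The TRIM region held 14, of which 6 were members and 10 had one. Genes that were not listed are left out of this order, and distances were not used. The promoter window of Trim21 begins at base 102565433 of chromosome 7 and that of Trim34a at base 104244207, so Trim21 lies apart from the other TRIM members. In the TRIM region Trim5, Trim6 and Trim68 were called between SJL and both other strains, in different directions. Trim6, next to Trim34a among the listed genes, read 118, 45.1 and 96.0 in SJL and between 4.35 and 4.47 on the KS and B6 arrays. Its log2 difference was 2.66 in SJL against KS. The KS and B6 means of Trim6 lay below the filter on dim signal. It therefore passed only through SJL and had to differ, so no p-value is given for it. Trim6 was at least 4.99-fold higher in SJL by this probe set, while Trim12a and Trim12c were lower. The other Trim6 probe set lay between 4.37 and 4.50 on all 9 arrays, so the rise rests on 1 of 2 probe sets. Trim5, between Trim34a and Trim12a, had a mean of 1590 ± 241 in SJL, 512 ± 33.0 in KS and 621 ± 55.4 in B6 (SD, n = 3), a rise of 1.61 in SJL against KS (limma adjusted p = 7.87e-05). Trim68, next to Trim21 among the listed genes, had a mean of 168 ± 80.0 in SJL, 974 ± 84.3 in KS and 969 ± 26.7 in B6 (SD, n = 3). It fell by 2.56 on the log2 scale in SJL against KS (limma adjusted p = 0.000272). None of the 3 was called in KS against B6. Over 18 alternative fits the limma adjusted p of the SJL differences of Trim5 and Trim68 reached at most 0.00379.

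In the p200 region Ifi202b, a p200 gene known for differing between strains, had a mean of 11080 ± 642 in SJL, 6538 ± 638 in KS and 7945 ± 477 in B6 (SD, n = 3). It was called higher in SJL than in KS (0.76, limma adjusted p = 0.00126) and than in B6 (0.48, limma adjusted p = 0.0124). Its probe set, 1421551_s_at, carries a suffix for probes shared with other transcripts, so its signal may not be that of Ifi202b alone. Ifi209, also in the p200 region, showed a split between its 2 probe sets. By 1435330_at it read 15.2 on each of the 3 SJL arrays and averaged 1179 ± 156 in KS and 1254 ± 233 in B6 (SD, n = 3), with a log2 difference of -5.55 in SJL against KS (limma adjusted p = 9.94e-08). By 1435331_at it had a mean of 765 ± 34.2 in SJL, 784 ± 111 in KS and 899 ± 231 in B6 (SD, n = 3), a difference of -0.03 (limma adjusted p = 0.954). The same gene was thus at the lower end in SJL by 1 probe set and at a level within the spread of KS by the other. Ifi209 was chosen after its values were seen. Ackr1, Cadm3, Fcer1a, Ifi207, Ifi213 and Trim3 lay below 16 on all arrays.

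**Figure D3:**
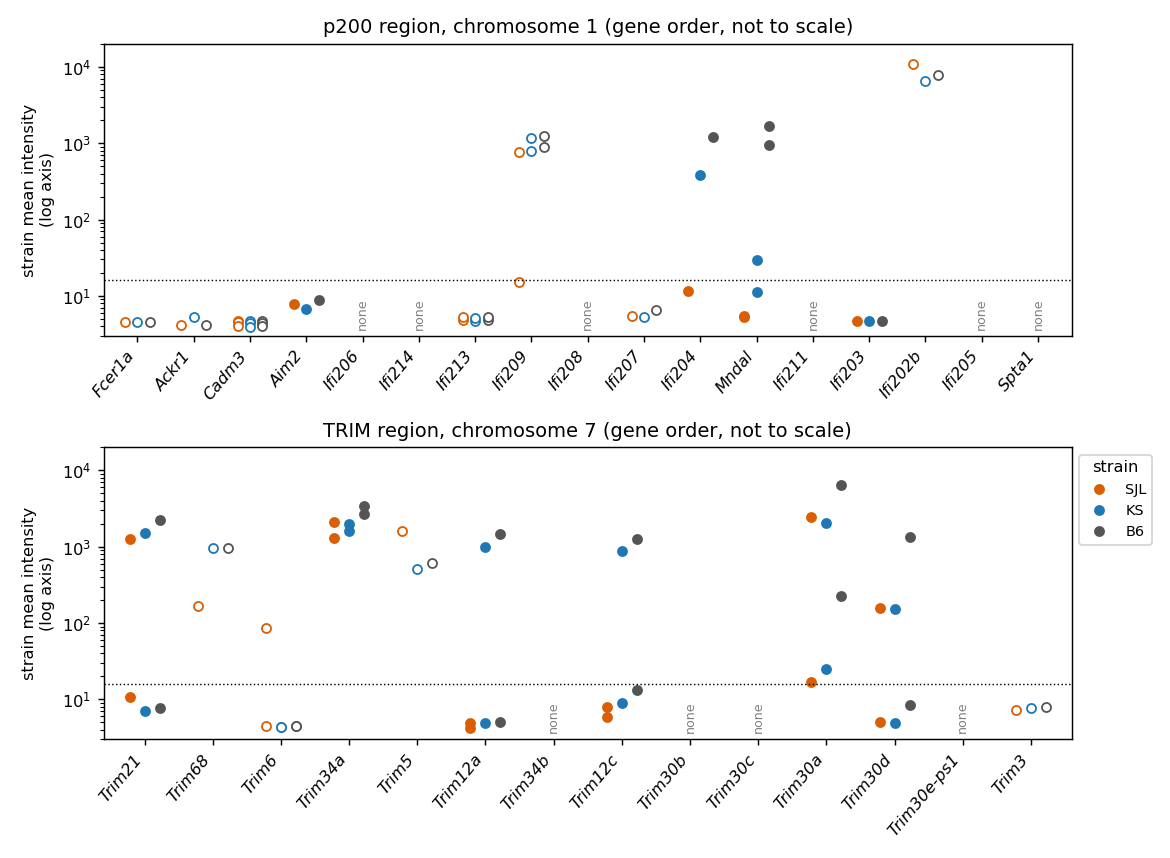
Strain mean intensity on a log axis of each listed gene of the p200 region on chromosome 1 and the TRIM region on chromosome 7. Listed genes are in chromosome order and not to scale, without the genes between them that were not listed. There is 1 point per probe set, in the order SJL, KS and B6. Filled points are the 10 members, open points their neighbours, and "none" marks genes without a probe set of their own. In the TRIM region Trim12a and Trim12c are at the lower end in SJL, while Trim5 and Trim6, in the same stretch, are higher in SJL.

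Genes that interferon is known to raise were lower in KS and in SJL than in B6, and they set the members' B6 excess in context. The list held 58 genes with a probe set, of which 52 passed the filter and none was a member. In KS against B6, limma called 44 of 52 lower and 0 higher (6.25% of all genes tested were called in either direction), with a median log2 difference of -2.0, beside 0.01 over all genes tested. In SJL against B6, 39 were lower and 0 higher (16% of all in either direction), with a median of -1.57, beside 0.02. Ifit1, a protein that binds viral RNA, had a mean of 1108 ± 377 in SJL, 665 ± 39.7 in KS and 6584 ± 635 in B6 (SD, n = 3). It fell by 3.29 in KS against B6 (limma adjusted p = 8.00e-05) and fell by 2.62 in SJL against B6 (limma adjusted p = 0.000152). Usp18, a brake on interferon receptor signalling, averaged 255 ± 85.5, 291 ± 40.9 and 4366 ± 774 in SJL, KS and B6 and differed by -3.86 in KS against B6 (limma adjusted p = 2.64e-05). Oas1a, which makes the activator of RNase L, differed by -3.22 in KS against B6. Oas2, of the same family, differed by -4.76 in SJL against B6. Ifi27l2a was at 104 ± 0.8 in SJL and 149 ± 15.2 in KS against 8323 ± 1445 in B6 (SD, n = 3). The list was drawn up with earlier results of these arrays known, so its direction is not independent evidence.

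Rsad2, which encodes the antiviral enzyme viperin, came closest among the genes always named to an on and off pattern. It read 4.66, 5.64 and 27.0 in SJL, 4.95, 4.93 and 4.89 in KS, and 1312, 207 and 853 in B6. Mx1, the interferon-induced GTPase that blocks influenza virus in other strains, read 6.09, 6.20 and 6.68 in SJL, 5.84, 6.23 and 5.51 in KS, and 285, 6.33 and 39.3 in B6, and was not called (limma adjusted p = 0.251 in KS against B6). Of 49 genes of the list that were high in at least 1 strain, Gbp3, Gbp7 and Rsad2 were low in another, KS in each case. Of the list 0 were low in SJL and high in B6, beside 0.526% of all probe sets high in B6. These counts take the brightest probe set of each gene. Another Rsad2 probe set read 4.57, 5.21 and 8.90 in SJL, 4.58, 4.56 and 4.45 in KS, and 928, 110 and 601 in B6, and so was low in SJL and high in B6. Among all probe sets high in at least 1 strain, 1.01% were low in another. By brightest probe sets, 0 of the 41 genes of the list that were high in KS were low in SJL, as Trim12a and Trim12c were. Among all probe sets high in KS 0.458% were low in SJL, so nothing is read from either count of 0. The other probe set of Xaf1, a gene of the list, was low in SJL and high in KS. Its mean was 4.86 in SJL and 488 in KS, and unlike Trim12a and Trim12c it was also low in B6, at 4.79.

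SJL and KS differed less over most of the interferon-stimulated list than for the members Trim12a, Trim12c and Ifi204. The members were chosen with strain differences known, so nothing is read from this. By brightest probe set Trim30a (0.22), Trim34a (0.07), Trim30d (-0.04) and Trim21 (-0.26) lay within the range of the list. Mndal differed by -1.32 on its first probe set, and both strains were low by its second. In SJL against KS, limma called 11 of the 52 listed genes higher and 2 lower (14.8% of all genes tested were called). An unadjusted limma p under 0.05 was reached by 24 of the 52, beside 3087 of all 10956 genes tested. The median log2 difference of the list was 0.23, with a range of -0.71 to 6.10. The calls numbered 7 without KS replicate 2, 8 without KS replicate 3, 8 without SJL replicate 2, 7 without SJL replicate 3 and 6 when dim probe sets were kept. Gbp7, an interferon-induced GTPase, was at 1340 ± 328 in SJL and 9.38 ± 2.35 in KS (SD, n = 3), at least 82.0-fold higher in SJL (limma adjusted p = 2.97e-07). Gbp2 of the same family was higher by 2.79 (limma adjusted p = 5.53e-06). Xaf1, a pro-apoptotic interferon-stimulated gene, was higher in SJL by its brighter probe set (3.06, limma adjusted p = 0.000158) and lower by its other (-5.06), so its direction is uncertain. Irf9, Irf7, Oas1a, Usp18, Ifit1 and Rsad2 were not called in this contrast, with limma adjusted p from 0.105 to 0.795.

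Set against that list, the members took different places. In KS against B6, where its median was -2.0 and its range -6.86 to 0.13, the difference was -5.43 for Mndal, -3.06 for Trim30d, -1.69 for Ifi204 and -1.67 for Trim30a. It was between -0.47 and -0.56 for Trim12a, Trim12c, Trim34a and Trim21. In SJL against B6, Mndal was at least 103-fold, Trim12a at least 90.4-fold and Trim12c at least 78.6-fold lower in SJL. Ifi27l2a, with the lowest difference of the list (-6.18), was at a ratio of 0.0126 of its B6 level. Each value is that of the gene's brightest probe set, and both contrasts use the same B6 arrays. Whether the interferon-stimulated level had a part in any member's difference was not tested.

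**Figure D4:**
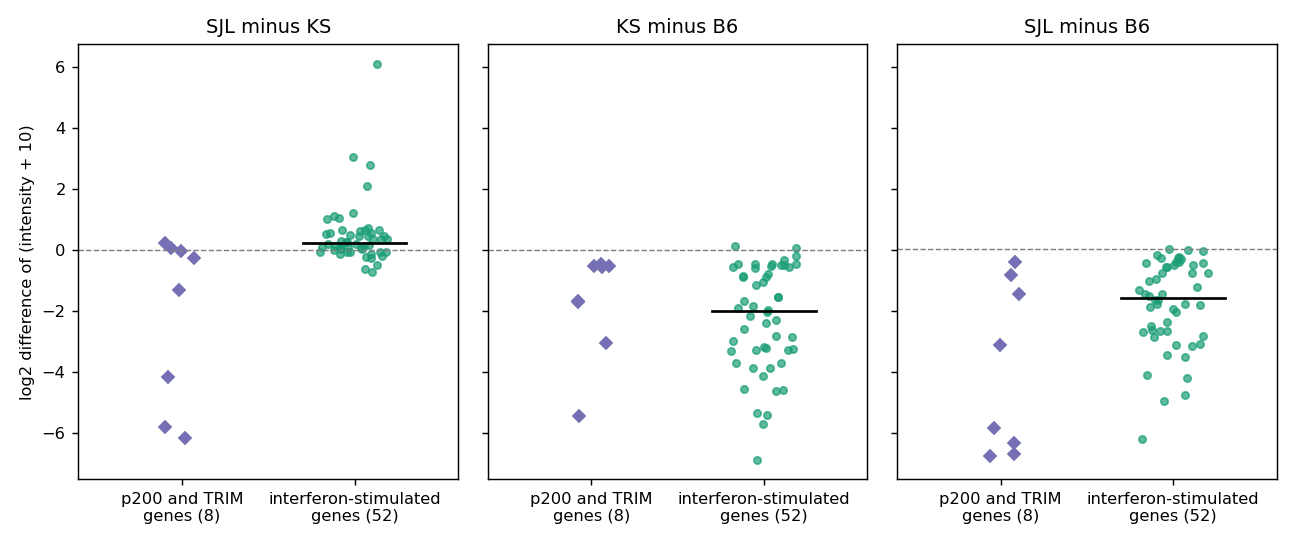
Log2 difference of intensity + 10 between strains, with 1 diamond for each of the 8 members that passed the filter and 1 dot for each of 52 interferon-stimulated genes, in 3 panels by contrast. The bar marks the median of the interferon-stimulated genes (0.23, -2.0 and -1.57 from left to right) and the dashed line the median of all genes tested. In SJL against KS the diamonds near -6 are Trim12a and Trim12c, below all the dots.

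Components that transmit the interferon signal differed in part between strains. Of 11 signalling genes tested, 3 were called lower and 0 higher in KS than in B6 and the same numbers in SJL than in B6, and 0 were called in SJL against KS, where 2 had an unadjusted p under 0.05. The 3 were Irf9, a DNA-binding factor at the response element, at 537 ± 133 in SJL, 445 ± 109 in KS and 2188 ± 65.8 in B6, Irf7, which amplifies interferon production, at 369 ± 104, 329 ± 13.8 and 1295 ± 310, and Stat2 at 50.7 ± 3.1, 48.9 ± 12.5 and 198 ± 39.5 (SD, n = 3). All 3 also stand in the interferon-stimulated list. The 7 interferon genes with a probe set (Ifna1, Ifna2, Ifna4, Ifna5, Ifna11, Ifnb1 and Ifng) reached 4.88 at most on any array. Of 6 receptor genes tested limma called 0 in any contrast, and 2 in SJL against KS, 3 for KS against B6 and 2 for SJL against B6 had an unadjusted p under 0.05. Ifngr2 had means of 534 in SJL, 647 in KS and 498 in B6, and Ifngr1 502, 452 and 507.

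Partners of the p200 sensors and TRIM genes outside the cluster were counted in the same way, against the shares of all genes given above. Of 8 DNA sensing and inflammasome genes tested, 2 were called higher in SJL than in KS, 1 lower in KS than in B6 and 2 lower in SJL than in B6. Zbp1, a sensor of Z-form nucleic acid that is also in the interferon-stimulated list, had a mean of 421 ± 119 in SJL, 95.7 ± 46.7 in KS and 2511 ± 1160 in B6 (SD, n = 3). The calls of Gsdmd (0.60 in SJL against KS) and Cgas (-0.80 in SJL against B6) ended when KS replicate 1 was left out. The limma adjusted p was then 0.108 and 0.0731, and both calls also ended under several other leave-outs. The other Cgas probe set was not called in SJL against B6 (-0.43, limma adjusted p = 0.235). Pycard, the adaptor that Aim2 binds, had means of 6063 in SJL, 5537 in KS and 4923 in B6, and Il18, a cytokine matured by inflammasomes, 9836, 9673 and 8965, and neither was called (both chosen for their link to Aim2 after their values were seen). Of 26 TRIM genes outside the cluster, 5 were higher and 0 lower in SJL than in KS, 1 and 2 in KS than in B6, and 4 and 1 in SJL than in B6, with medians of 0.12, 0.04 and 0.12. Trim14 (0.99) and Trim26 (0.58) were higher in SJL than in KS, and Trim62 (1.41) and Trim11 (0.69) in SJL than in B6. The other Trim26 probe set was not called in SJL against KS (0.21, limma adjusted p = 0.682). Those of Trim14 and Trim62 lay below 16 on all arrays. The lowest difference among these 26 genes in SJL against KS was -0.56.

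Several p200 genes are used by macrophages and other leukocytes, so leukocyte markers were set beside the members. In bulk tissue fewer cells of a type and less RNA per cell cannot be told apart. Of 16 markers with a probe set, 11 passed the filter, and limma called 2 higher and 0 lower in SJL than in KS, 0 in KS against B6 (1 had an unadjusted p under 0.05) and 2 higher and 1 lower in SJL than in B6. Itgam, an integrin of myeloid cells, was higher in SJL than in KS (1.11) and than in B6 (1.31), as was Cd14 (0.65 and 0.68). Cd52 was the lower one (-0.68, limma adjusted p = 0.0415), a call that ended under 7 leave-outs. The summed intensity of the 16 markers was 1277 to 1592 in SJL, 1345 to 2084 in KS and 1263 to 1460 in B6, so the strains overlapped, and Ptprc, Adgre1, Cx3cr1, Cd3e and Cd209a lay below 16 on every array. Their part in the members' differences was not tested.

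Within a strain the members and the interferon-stimulated genes were read beside the whole array. Since levels below 16 have no order, arrays were ranked only over probe sets with all 3 arrays of the strain at 16 or above, a limit added after the values were seen. B6 replicate 1 was the highest B6 array for 11 of 11 member probe sets and for 41 of 50 interferon-stimulated genes, beside 26.7% of all genes. B6 replicate 2 was the lowest for 9 of 11 and 37 of 50, beside 37.4% of all. In KS, replicate 3, the array with photoreceptor transcripts, was the lowest for 8 of 10 and 27 of 45, beside 27.2% of all. The highest KS array was replicate 1 for 7 of 10 member probe sets and replicate 2 for 27 of 45 interferon-stimulated genes, beside 35.0% and 33.9% of all. In SJL only 5 member probe sets could be ranked. Replicate 2 was the lowest for 4 of 5 and for 15 of 47, beside 32.6% of all, and replicate 3 was the highest for 2 of 5 and 31 of 47, beside 22.4% of all. Several of these probe sets belong to the same gene, so they are not independent counts. Without KS replicate 3, the number of member probe sets low in 1 strain and high in another was again 4.

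**Figure D5:**
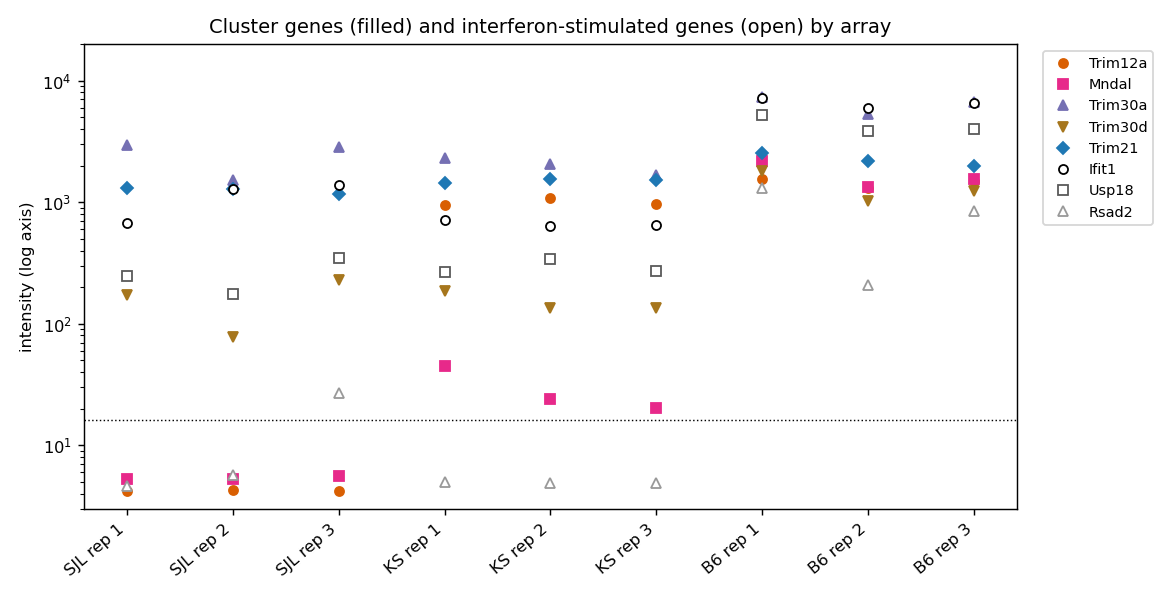
Intensity on a log axis of 5 members (filled symbols, brightest probe set of each) and 3 interferon-stimulated genes (open symbols) on each of the 9 arrays, with strains in the order SJL, KS and B6 and the dotted line at 16. Ifit1, Usp18 and Rsad2 are high on the B6 arrays and lower on all KS and SJL arrays, Trim12a is at 4.17 to 4.29 on the SJL arrays and 950 or higher elsewhere, and Trim21 lies between 1156 and 2517 throughout.

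Genes whose pattern over the 9 arrays was most like the widest-ranging member of each cluster were found by the root mean square difference of centred log2 values over 10948 other genes. Closest to Mndal (1452231_x_at) were Ifi27l2a (0.46), Klra8 (0.61), Nlrc5 (0.85), Pbp2 (0.89) and Oas2 (1.01). Klra8, a natural killer receptor gene that some strains lack, had a mean of 5.63 in SJL, 5.42 in KS and 906 in B6. Nlrc5, the transactivator of class I histocompatibility genes, had a mean of 4.64 in SJL, 4.66 in KS and 484 in B6. Closest to Trim12a (1437432_a_at) were B3galt6 (0.46), Pdlim2 (0.47), Lgals7 (0.63), Piezo2 (0.69) and Apoc1 (0.74). Of these B3galt6, a galactosyltransferase of proteoglycan synthesis, had a mean of 11.3 in SJL, 879 in KS and 1052 in B6. These are the nearest patterns by distance, with no test.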

How the data were processed

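The deposited values are linear intensities per probe set. The authors deposited them summarised and, from their upper quartiles of 380 to 396, scaled alike, by a method not given in the sources used here. Symbols came from the platform annotation, and RefSeq (GRCm38.p6) knew the gene of all 17 member probe sets and changed 0 symbols. The limma 3.58.1 package in R 4.3.3 estimated the 3 strain means of log2(intensity + 10) on 22519 probe sets, after those with a mean below the median were left out. P-values were Benjamini-Hochberg adjusted over these probe sets, all tests were two-sided, and called means an adjusted p under 0.05. An array has no read depth, and 3 arrays a strain limit the precision. A gene was represented by its brightest probe set. Windows were aligned with Biopython 1.88. The fit was tested on simulated data.

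The members and gene lists were chosen with earlier results of these data known. By the rule for named genes, every member probe set was named, with a fixed set of interferon-stimulated genes, up to 3 called genes per list and contrast, or, without a call, the brightest 2 at most, and the 5 genes nearest in pattern to 1 member of each cluster. Genes of the lists for corneal cells and retina were named only to check the tissue. Alternatives were other filters, pseudocounts and scalings, a replicate block, a variance trend, 6 arrays per contrast, plain or averaged probe sets, other limits for low and high, and leaving out each array.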

Additional observations from a re-analysis of the deposited data

How the results depend on the processing

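No member's called difference changed sign under another pseudocount, quantile normalization, centring on the median or leaving out any array. Under the leave-outs 459 of 459 differences of the members moved by less than the spread between replicates. With a pseudocount of 1, 26 of 51 moved by more, and with 50, 20 of 51. Centring on the median moved 6 and quantile normalization 0. The moved differences were not broken down by level. Low in 1 strain and high in another were 4 member probe sets, 4 to 5 with an array left out and 6 with a low limit of 32. With a filter at the 70th percentile limma called 2101 probe sets for SJL over KS, 742 for KS over B6 and 2156 for SJL over B6, and 0 leukocyte markers in either SJL contrast, as fewer probe sets were tested. With no filter 838 probe sets were called in KS against B6 and 6 interferon-stimulated genes in SJL against KS. Leaving out 1 array gave 745 to 1452 probe sets in KS against B6, with 745 without KS replicate 2 and 823 without KS replicate 3, and 7 to 14 interferon-stimulated genes in SJL against KS and 0 to 1 leukocyte markers in KS against B6. The cause was not tested. Arrays of the same replicate number correlated at -0.27 to 0.26 in their deviations, and 9 of 18 comparisons matched best by number. These values do not settle whether arrays of the same number belong together. With the replicate block, limma called 3315 probe sets for SJL over KS (3489 without it, 15.5% of those tested), 1124 for KS over B6 (1286 without it) and 3509 for SJL over B6 (3605 without it). It moved no count by over 1.5 times.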
